A study of Mus musculus with 2 samples.

Results

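The 4 genes described here, Ly6d, Ly6a, Gml and Ly6e, encode small surface proteins of the Ly6 type and lie close together on mouse chromosome 15. They were found by their symbols among the 12631 gene rows of the expression sheet, and all 4 had a row. They were chosen by family and position, and selected on their measured levels in these same libraries, so those levels are given below as a description. The study compared 1 library of tissue with a deleted Myh9 gene (Myh9-KO, genotype Myh9-/-) and 1 library of the wild type (Control). The mice of both groups were C57BL/6 of 8 weeks, and both groups were injected with tamoxifen daily on 5 days, so the drug was shared by the groups. RNA came from small intestinal epithelium released with EDTA at day 5 and was sequenced on an Illumina instrument. The sources used here do not name the Cre line or the deleted exons. Each group held 1 library, so no value has a replicate error and no difference was tested.

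Ly6-type proteins are short chains folded into finger-like loops that are pinned by disulphide bonds, and most are held on the outer face of the membrane by a glycosylphosphatidylinositol (GPI) anchor. In the mouse many of their genes sit in a single cluster, and individual members are widely used as surface markers of blood cells. Ly6a encodes Sca-1, known from mouse blood stem cells and from intestinal epithelium that is regenerating after injury, and its transcription responds to interferon. Ly6d marks lymphoid progenitors in the mouse and is also found on stratified epithelia. Ly6e is a broadly expressed, interferon-responsive member that restricts the entry of coronaviruses. Gml is named after a GPI-anchored protein, and its human counterpart was described as a gene induced by p53.

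Levels below are the deposited values with the 1 that the authors had added taken off. The sources used here name no unit, so a difference is read between the 2 libraries for the same gene. Summed marker levels and the search for genes of similar level use the listed values, and say nothing of amounts of RNA between genes. A fold is the ratio of level plus 1, and genes that reached a level of 1 in either library were called at the 1.4-fold difference that the labels state. Of 12152 such genes, 15.9% were called higher and 16.3% lower in Myh9-KO, and the median log2 fold was -0.0037. The list counts below stand beside these shares as descriptions, because the lists were chosen with earlier results known. The targeted gene checks the labels: Myh9 was 13.6 in the Myh9-KO library and 99.5 in the Control library, lower by 6.89-fold. The listed levels summed to 634492 in Myh9-KO and 671114 in Control, and read depth is unknown.

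Ly6d, Ly6a and Gml were much higher in the knockout epithelium, whereas Ly6e was close to its control level. Of the 4 genes, 3 were called higher and none lower. Gml, listed at 0 in Control, entered through the knockout alone, which fixed its direction. Because the 4 genes were picked with this contrast in view, their share is not read against the 15.9% of all genes called higher. In bulk tissue, more cells expressing a gene and more RNA per cell cannot be told apart.

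Ly6d was 85.0 in Myh9-KO and 1.19 in Control. With a pseudocount of 1 its log2 fold was 5.29, the third highest of the included genes at that pseudocount, and it lies at chr15:74762056-74763620 on the minus strand of mm10 (ENSMUSG00000034634.7). Its annotation holds a single transcript of 744 exon bases, and none of its stretches of 50 bases occurs in a transcript of another gene.

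Ly6a was 77.9 in Myh9-KO and 1.34 in Control. Its log2 fold was 5.07, and it lies at chr15:74994877-74998031 on the minus strand (ENSMUSG00000075602.10). Unlike Ly6d, it shares sequence with its neighbours: 19.0% of its stretches of 50 bases also occur in transcripts of other genes, mostly in Ly6c1, with 15.03%. How reads of such stretches were divided is not stated, so the split between Ly6a and Ly6c1 is uncertain. Ly6c1 itself was listed at 2.09 in Myh9-KO and 0.144 in Control.

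Gml was 12.2 in Myh9-KO and was listed at 0 in Control, so no fold is given. It lies at chr15:74813452-74818815 on the minus strand (ENSMUSG00000068349.12). Gml2 starts on the opposite strand 255 bases away, and RefSeq's models of the pair overlap by 1109 bases. Of the stretches of 50 bases in Gml, 18.7% also occur in Gml2. Of those in Gml2, 14.4% occur in Gml and 16.4% in Cyp11b1, which had no row. Gml2 was 3.93 in Myh9-KO and again listed at 0 in Control. No source used here states whether strand was used, so the separate levels of Gml and Gml2 are uncertain. Both rows were higher in the knockout, but they entered through it alone, which fixed their direction.

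Ly6e was 122 in Myh9-KO and 139 in Control, a log2 fold of -0.18 that lies inside the 1.4-fold lines. It sits at chr15:74955051-74959905 on the plus strand (ENSMUSG00000022587.14), between Gml and Ly6a, with 35.0 kb to Ly6a on its right. None of its stretches of 50 bases occurs in another gene's transcripts. It was the 1 gene of the 4 whose level was similar in the knockout and the control.

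**Figure D1:**
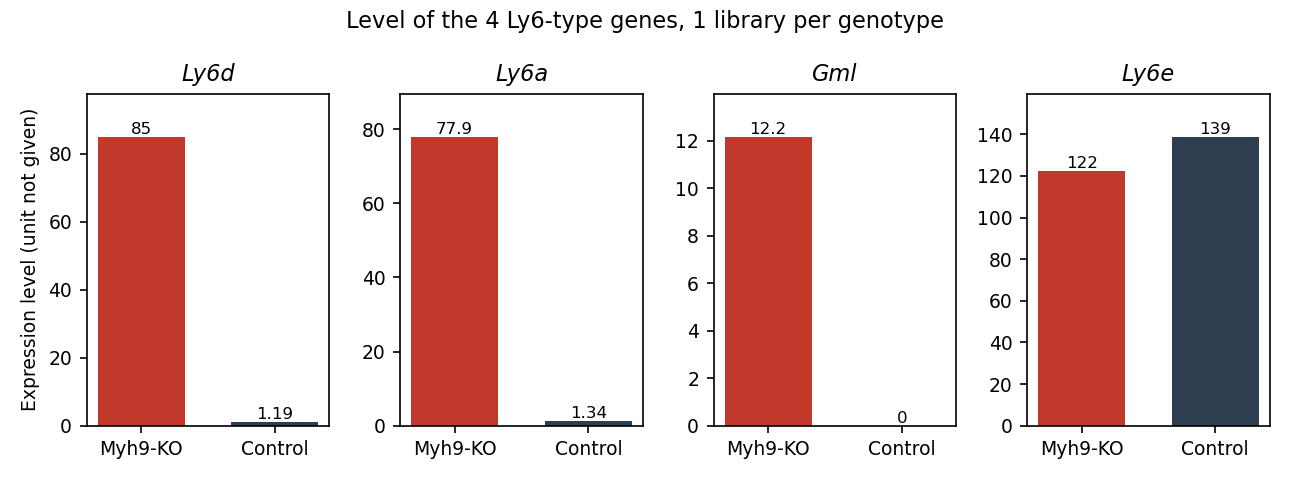
Deposited expression level, in a unit the sources do not name, of Ly6d, Ly6a, Gml and Ly6e in the Myh9-KO library (red) and the Control library (dark), each gene on its own axis starting at 0. Ly6d and Ly6a reach 85.0 and 77.9 in Myh9-KO and stay near 1 in Control, Gml is listed at 0 in Control, and the 2 bars of Ly6e, 122 and 139, are of similar height.

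Genes with a similar Control level were read beside them. Of 1297 genes with a Control level from 1 to under 2, the range that holds Ly6d and Ly6a, 63.9% lay inside the 1.4-fold lines. Of 463 genes with a Control level from 100 to under 200, 70.0% lay inside the lines, as Ly6e did.

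By their levels in both libraries, measured as the distance over 2 values of log2(level + 1), Ly6a and Ly6d were each other's nearest gene, at a distance of 0.16. The next nearest to either were Mboat1, an acyltransferase gene, at 46.8 in Myh9-KO and 3.40 in Control, and Saa1, an acute-phase serum amyloid gene, at 33.9 in Myh9-KO and 0.920 in Control. Nearest to Gml were Snora73b, a small nucleolar RNA at 12.6 in Myh9-KO, the immunoglobulin segment Ighv1-69 at 12.8 and the annexin gene Anxa10 at 10.9, all listed at 0 in Control. Nearest to Ly6e were the protease inhibitor gene Spint1 at 124 in Myh9-KO and 136 in Control, the chromatin protein gene Hmgb1 at 118 in Myh9-KO and 139 in Control, and Ntan1, which acts in protein degradation, at 118 in Myh9-KO and 134.5 in Control. With 2 libraries, such likeness rests on 2 values a gene.

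**Figure D2:**
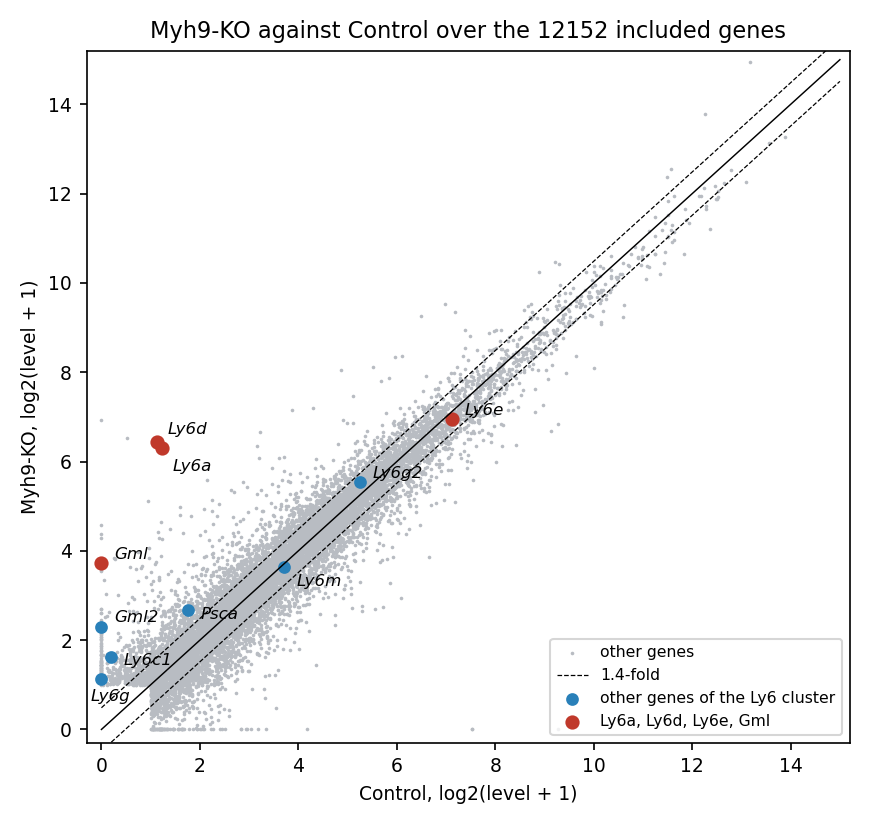
Level of each of the 12152 included genes in Myh9-KO (vertical) against Control (horizontal), both as log2(level + 1), with Ly6d, Ly6a, Gml and Ly6e in red and 6 further genes of the Ly6 cluster in blue. The dashed lines mark the 1.4-fold difference. Ly6d and Ly6a stand far above the upper line, and Ly6e lies between the lines.

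The cluster as a whole was then read, from a list of 21 Ly6-type genes of this stretch of chromosome 15. Of these, 10 had a row and 11, among them Ly6k, Ly6i, Ly6c2, Ly6f, Ly6h, Slurp1, Lynx1 and Gpihbp1, had none and are not analysed here. Apart from the 4 genes above, 6 had a row. Of these 6, 4 were called higher, none was called lower and 2 lay between. The shares over all included genes were 15.9% higher and 16.3% lower. Of the 4 higher genes, Gml2, Ly6c1 and Ly6g had a Control level under 1 and entered through the knockout alone, which fixed their direction.

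Psca, whose product is known as prostate stem cell antigen, was 5.36 in Myh9-KO and 2.37 in Control, a log2 fold of 0.92. Ly6c1, a marker of endothelium, has a log2 fold of 1.43 from the low levels given above. Ly6g, the neutrophil marker, was 1.20 in Myh9-KO and listed at 0 in Control. The 2 remaining genes were similar in both libraries: Ly6g2, listed as BC025446, was 45.8 in Myh9-KO and 37.1 in Control, and Ly6m, listed as 2010109I03Rik, was 11.5 in Myh9-KO and 12.02 in Control. With Ly6e, 3 cluster genes were inside the 1.4-fold lines, and Ly6e and Ly6m lie between the genes that were higher.

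Promoter windows from RefSeq (GRCm38.p6, 250 bases before to 50 after the gene start) were found for 4 of the 21 cluster genes, and 2 of these, Ly6c1 and Ly6g, had a row. They are shown because these paralogs, on opposite strands, were both higher at low levels, each having entered through the knockout alone. The capitals mark the longest run of bases that the 2 windows shown share, 37 bases. It was found from position -110 to -74 in Ly6c1 and from -66 to -30 in Ly6g, counted from the gene start used for that window. Aligned end to end, 62.5% of the columns were identical. A stretch close to the run also lies in the window of Ly6f, and a shorter part of it in those of Ly6c2. Neither of these genes had a row. The part of the run in the Ly6c1 and Ly6g levels was not tested. Each of the 2 genes has a further window, from another start. That of Ly6g, chr15:75155079-75155378, also holds the run, and that of Ly6c1, chr15:75048614-75048913, does not hold it whole. The window shown for Ly6c1 is chr15:75048788-75049087 on the minus strand, and that for Ly6g is chr15:75155011-75155310 on the plus strand.
Ly6c1: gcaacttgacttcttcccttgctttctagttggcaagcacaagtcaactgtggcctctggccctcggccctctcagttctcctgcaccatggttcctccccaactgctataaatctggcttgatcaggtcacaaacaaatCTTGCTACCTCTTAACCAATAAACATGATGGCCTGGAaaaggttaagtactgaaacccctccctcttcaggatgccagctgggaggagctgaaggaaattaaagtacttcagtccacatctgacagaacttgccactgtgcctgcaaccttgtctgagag
Ly6g: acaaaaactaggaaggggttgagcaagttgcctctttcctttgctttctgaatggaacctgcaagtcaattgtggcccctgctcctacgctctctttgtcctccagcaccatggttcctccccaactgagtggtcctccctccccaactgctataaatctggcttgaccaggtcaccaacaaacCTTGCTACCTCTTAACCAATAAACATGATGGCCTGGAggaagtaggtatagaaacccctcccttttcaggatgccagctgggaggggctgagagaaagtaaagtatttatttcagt

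The windows were searched on both strands for 5 motifs: the interferon-response element core (GAAA and GAAA with 2 bases between), the GAS element (TTCNNNGAA), AP-1 (TGANTCA), TEAD (GGAATG) and the kappa B core (GGG and TTTCC with 2 bases between). None of the motifs occurs in any window found for the cluster genes. Over all 32851 promoter windows, the shares that hold a match were 3.44%, 8.30%, 7.81%, 14.7% and 1.63% in that order. Ly6a, Ly6d, Ly6e and Gml were not among the windows found.

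The same pattern was followed outward along the chromosome. From Ly6d to Ly6a the 4 genes span 236 kb, with 7 other protein-coding genes between them, of which 2 (Gml2 and Ly6m) had a row. Within 1 Mb of the outermost gene starts, 17 further genes were included: 7 were called higher, 2 lower and 8 lay between (median log2 fold 0.27). Of the 7, Gml2, Ly6c1 and Ly6g entered through the knockout alone, which fixed their direction. The shares over all included genes were 15.9% higher and 16.3% lower. Besides the cluster genes, Them6, next to Psca, was 3.90 in Myh9-KO and 1.61 in Control. Top1mt, the mitochondrial topoisomerase, was 6.58 in Myh9-KO and 3.41 in Control, and Gsdmd, the pore-forming effector of pyroptosis, was 209 in Myh9-KO and 138 in Control. The 2 lower genes were Naprt, which makes NAD from nicotinic acid, at 61.0 in Myh9-KO and 117 in Control, and Pycrl, of proline synthesis, at 45.6 in Myh9-KO and 71.9 in Control. Among the included genes of this window outside the Ly6 cluster, the highest log2 fold was 0.91, of Them6. Ly6d, Ly6a and Gml were selected on their levels here, so they are not ranked against these neighbours.

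**Figure D3:**
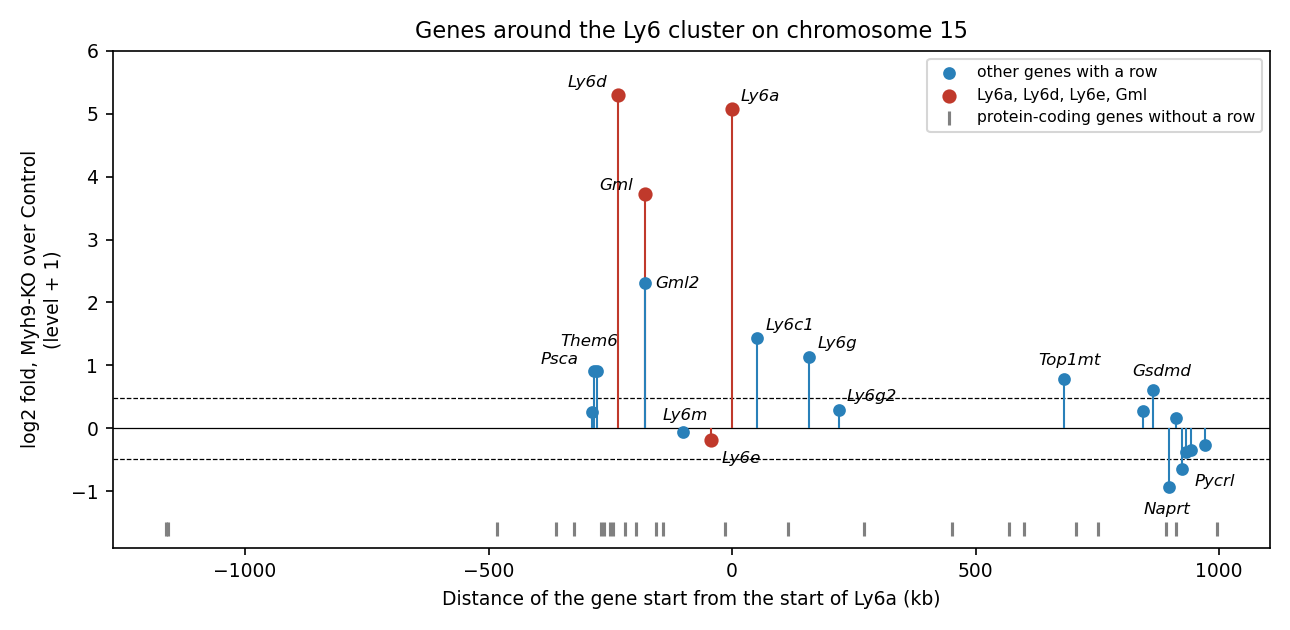
Log2 fold of level plus 1, Myh9-KO over Control, for the genes with a row around the Ly6 cluster, by the distance of each gene start from that of Ly6a in kb. Red stems are Ly6d, Gml, Ly6e and Ly6a, blue stems are other included genes, grey ticks are protein-coding genes without a row, and dashed lines mark 1.4-fold. Gml, Gml2 and Ly6g were listed at 0 in Control, so their heights depend on the added 1. Ly6e and Ly6m lie near 0 between stems that are higher.

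Myh9 itself is on the same chromosome, 2.76 Mb to the right of Ly6a. Over all of chromosome 15, 448 genes were included, of which 82 (18.3%) were called higher and 75 (16.7%) lower, and the median log2 fold was 0.0058. By its share of higher genes, chromosome 15 was the sixth of the 20 chromosomes read (the autosomes and X), which ranged from 10.8% on chromosome 7 to 23.3% on chromosome 12. With a pseudocount of 1, the 4 genes of chromosome 15 with the highest log2 fold were all in the Ly6 cluster, namely Ly6d, Ly6a, Gml and Gml2. Of these, Ly6d, Ly6a and Gml were selected on these levels, and Gml and Gml2 entered through the knockout alone, so the order is a description. The next gene, Gm17349, outside the cluster, was 1.72 in Myh9-KO and listed at 0 in Control. The part that position near the deleted gene plays was not tested.

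**Figure D4:**
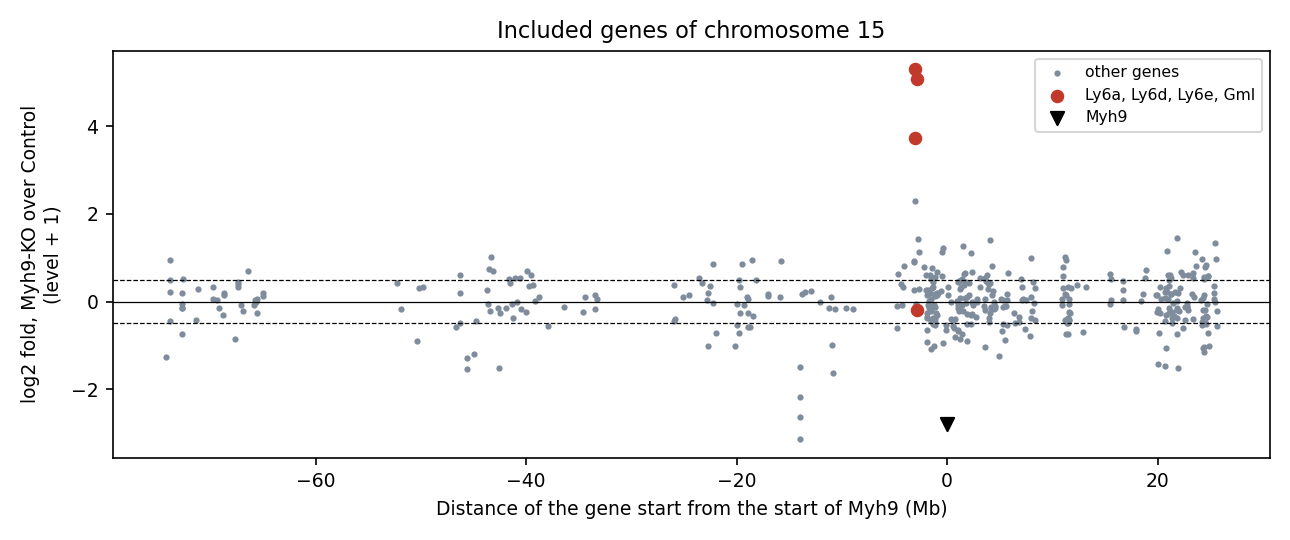
Log2 fold of level plus 1, Myh9-KO over Control, of the 448 included genes of chromosome 15, by the distance of each gene start from that of Myh9 in Mb. Red points are Ly6d, Ly6a, Gml and Ly6e, the triangle is Myh9, and dashed lines mark 1.4-fold. Ly6d, Ly6a and Gml, which were selected on these levels, are the highest points, and Myh9 lies at -2.78.

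Ly6-type genes on other chromosomes gave no uniform picture. Of 24 listed, 7 had a row and 6 were included, with 3 called higher, none lower and 3 between. Among all included genes, 15.9% were called higher and 16.3% lower. Plaur on chromosome 7, which encodes the urokinase receptor, was 20.6 in Myh9-KO and 1.23 in Control, a log2 fold of 3.27. Spaca4, an acrosome protein gene also on chromosome 7, was 2.72 in Myh9-KO and 0.910 in Control, and Ly6g6e on chromosome 17 was 1.31 in Myh9-KO and listed at 0 in Control. Spaca4 and Ly6g6e entered through the knockout alone. Lypd8, which in the mouse colon keeps flagellated bacteria off the epithelium, was 2939 in Myh9-KO and 2899 in Control. Cd177, a neutrophil surface gene, was 7.53 in Myh9-KO and 8.69 in Control, and Lypd1 was 10.3 in Myh9-KO and 9.94 in Control.

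The genes that build and attach the GPI anchor were read next. Of 29 included genes, 3 were called higher, 3 lower and 23 lay between (median log2 fold -0.16), beside 8231 of the 12152 included genes that lay between. Pgap1, which removes an acyl chain from the anchor before it leaves the endoplasmic reticulum, stood out at 14.9 in Myh9-KO and 2.57 in Control, a log2 fold of 2.15. Piga, of the first step of anchor synthesis, was 6.70 in Myh9-KO and 4.49 in Control, and Pigz, which adds a side mannose and entered through the knockout alone, was 1.64 in Myh9-KO and 0.720 in Control. Pigp was 19.9 in Myh9-KO and 38.4 in Control, Dpm3, a subunit of the mannose donor synthase, was 60.6 in Myh9-KO and 110 in Control, and Pgap3, of lipid remodelling, was 8.50 in Myh9-KO and 13.0 in Control. Pigt, of the transamidase that attaches the anchor, was 75.9 in Myh9-KO and 95.4 in Control, and Pigq was 41.4 in Myh9-KO and 49.1 in Control.

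The genes of other GPI-anchored proteins were called in both directions alike. Over all included genes, 15.9% were called higher and 16.3% lower. Of the 25 included here, 8 were called higher, 1 of them through the knockout alone, 8 lower and 9 lay between. Their median log2 fold was -0.15. The higher ones included Rtn4r, a receptor of axon growth inhibitors, at 3.14 in Myh9-KO and 1.20 in Control, the phosphatase gene Akp3 at 4.27 in Myh9-KO and 2.03 in Control, and Cd55, which shields cells from complement, at 12.02 in Myh9-KO and 6.53 in Control, and Bst2, known as tetherin, at 24.0 in Myh9-KO and 14.0 in Control. The lower ones included the ephrin gene Efna4 at 1.52 in Myh9-KO and 4.36 in Control, the leukocyte gene Cd48 at 1.74 in Myh9-KO and 4.27 in Control, Cpm, a carboxypeptidase gene, at 1.41 in Myh9-KO and 3.12 in Control, and Rgmb, a BMP co-receptor, at 3.69 in Myh9-KO and 6.96 in Control. The brush border enzymes Alpi, at 295 in Myh9-KO and 270 in Control, and Dpep1, at 159 in Myh9-KO and 176 in Control, lay between.

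Since Ly6a is used as a marker of regenerating epithelium, other genes known from that state were read beside it. Of 19 included genes, 16 were called higher, 1 lower and 2 between, and the median log2 fold was 1.79. The shares over all included genes were 15.9% higher and 16.3% lower. Of the 16, 4 had a Control level under 1 and entered through the knockout alone, among them Anxa10. The count is a description only. Among those with a Control level above 1, Anxa1 had a log2 fold of 3.08, Anxa3, another annexin gene, was 34.04 in Myh9-KO and 3.74 in Control, and S100a6, a calcium-binding protein gene, was 611 in Myh9-KO and 89.3 in Control. Il1rn, the interleukin-1 receptor antagonist, was 13.1 in Myh9-KO and 0.203 in Control. Clu, a marker of revival stem cells, was 12.1 in Myh9-KO and 2.79 in Control. Wnt5a, the lower member, was 0.226 in Myh9-KO and 1.47 in Control, while Msln was 2.48 in Myh9-KO and 2.80 in Control and Amotl2 was 1.73 in Myh9-KO and 1.80 in Control.

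Interferon-stimulated genes were read because Ly6a and Ly6e both respond to interferon. Of 38 included genes, 25 were called higher, 3 lower and 10 lay between (median log2 fold 0.74). Over all included genes, 15.9% were called higher and 16.3% lower. Of the 25, 6 entered through the knockout alone. Ifit1bl1 was 68.0 in Myh9-KO and 12.1 in Control, Isg15, a ubiquitin-like modifier, was 47.3 in Myh9-KO and 11.7 in Control, Oas1g, an RNA sensor gene, was 16.3 in Myh9-KO and 3.74 in Control, and Oasl2 was 46.3 in Myh9-KO and 12.9 in Control. The 3 lower genes were the immunoproteasome subunits Psmb8, at 89.2 in Myh9-KO and 173 in Control, and Psmb9, at 42.6 in Myh9-KO and 80.7 in Control, and the GTPase gene Gbp2, at 2.01 in Myh9-KO and 3.48 in Control. Irf1, an interferon-responsive transcription factor, was 95.4 in Myh9-KO and 107 in Control, and Ifitm3, which blocks viral fusion, was 79.9 in Myh9-KO and 75.3 in Control. The largest log2 fold of the list was 2.39, for Ifit1bl1. Ly6a, at 5.07, and Ly6e, at -0.18, were selected on their levels here and are not ranked against the list. The part of interferon in the Ly6a and Ly6e levels was not tested. None of the 11 interferon receptor and signalling genes passed 1.4-fold, among them Ifngr2 at 69.6 in Myh9-KO and 82.2 in Control and Ifngr1 at 49.8 in Myh9-KO and 43.4 in Control. Under a pseudocount of 0.1 there was 1 of the 11 called higher, and 2 after rescaling by totals.

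**Figure D5:**
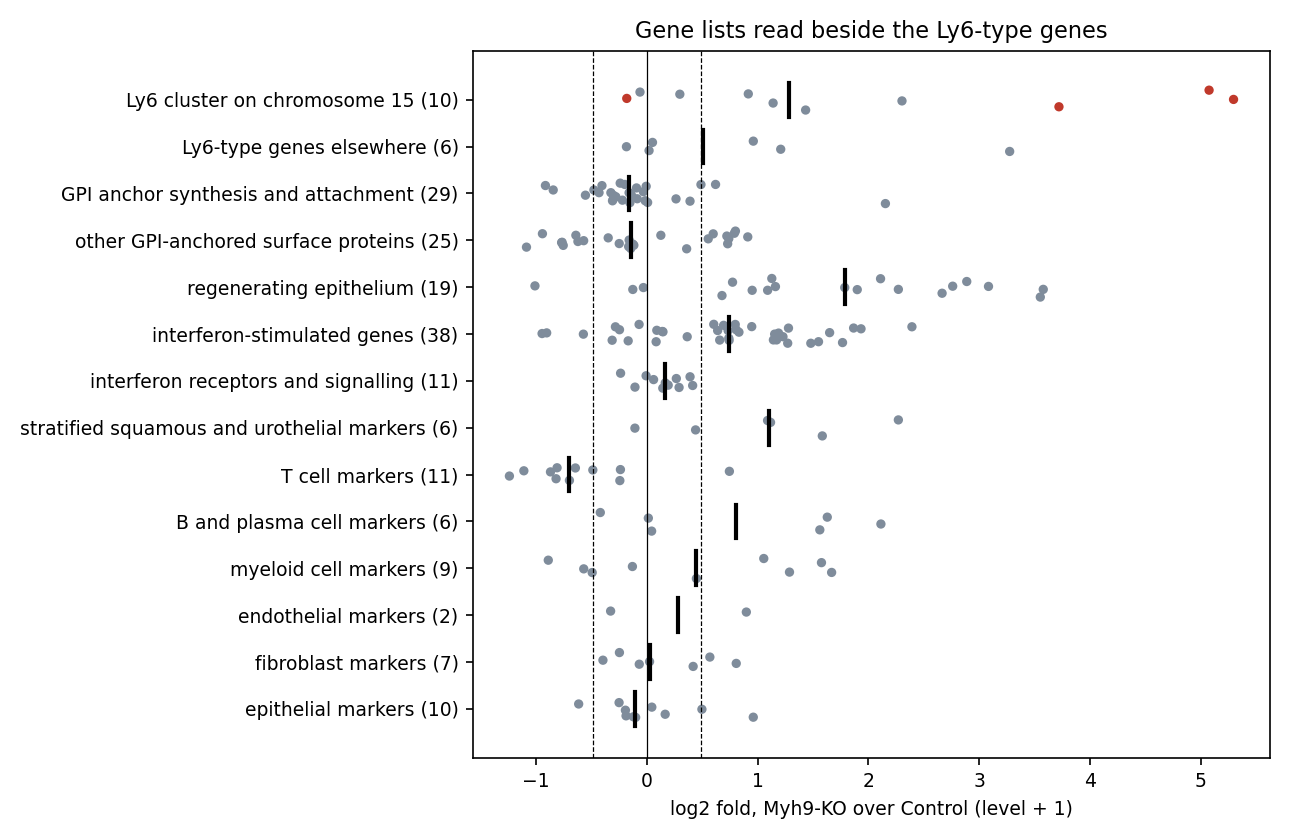
Log2 fold of level plus 1, Myh9-KO over Control, of the included genes of 14 lists, with the number of genes in brackets. Each point is a gene, red points are Ly6d, Ly6a, Gml and Ly6e, black bars are list medians and dashed lines mark 1.4-fold. The medians run from -0.70 for T cell markers to 1.79 for regenerating epithelium. Ly6d and Ly6a, which were selected on these levels, lie to the right of every other listed gene. Points of genes listed at 0 in Control, such as Gml, depend on the added 1.

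Ly6a, Ly6d, Ly6c1 and Ly6g are also made by cells other than intestinal epithelium, so markers of such cells were read. The labelled tissue is epithelium, and all 10 epithelial markers were included and summed to 7639 in Myh9-KO and 7684 in Control. Epcam was 633 in Myh9-KO and 680 in Control, Krt8 was 2286 in Myh9-KO and 2217 in Control, and Krt19 was 1791 in Myh9-KO and 2048 in Control. Of the 10, 2 were called higher, Krt18 at 488 in Myh9-KO and 250.3 in Control and Krt20 at 615 in Myh9-KO and 435 in Control. Cdx2, at 53.8 in Myh9-KO and 82.9 in Control, was the 1 called lower. Among all included genes, 15.9% were called higher and 16.3% lower.

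T cells can carry Sca-1. Over all included genes, 16.3% were called lower and 15.9% higher. Of 11 included T cell markers, 8 were called lower, 1 higher and 2 lay between. Levels of the T cell markers summed to 482 in Myh9-KO and 1035 in Control. The chemokine gene Ccl5 was 228 in Myh9-KO and 540 in Control, and the granzyme gene Gzma was 141 in Myh9-KO and 305.1 in Control. Of the T cell receptor complex, Cd3e was 8.87 in Myh9-KO and 17.0 in Control, and Cd3g was 17.9 in Myh9-KO and 32.3 in Control. The markers between were Cd3d, at 3.62 in Myh9-KO and 4.47 in Control, and Cd247, at 3.26 in Myh9-KO and 4.03 in Control. Cd4, the 1 higher marker, entered through the knockout alone, at 1.11 in Myh9-KO and 0.257 in Control. The part of T cells in the Ly6a level was not tested.

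Endothelium and stroma also carry Ly6a and Ly6c1. Only 2 of 10 endothelial markers had a row, Plvap at 1.80 in Myh9-KO and 0.500 in Control and Esam at 0.809 in Myh9-KO and 1.27 in Control. The pair summed to 2.60 in Myh9-KO and 1.77 in Control, Plvap entered through the knockout alone, and Pecam1, Cdh5 and Kdr had no row. The 7 fibroblast markers with a row summed to 39.99 in Myh9-KO and 41.3 in Control, with 2 called higher and none lower. The shares over all included genes were 15.9% higher and 16.3% lower. Col3a1 was 8.18 in Myh9-KO and 4.25 in Control, Lum, which entered through the knockout alone, was 1.06 in Myh9-KO and 0.387 in Control, Dcn was 11.7 in Myh9-KO and 15.7 in Control, and Vim was 12.2 in Myh9-KO and 14.6 in Control. The part of endothelial cells in the Ly6a and Ly6c1 levels was not tested.

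Ly6d is known from B lineage progenitors. Of 6 included B and plasma cell markers, 3 were called higher, none lower and 3 lay between. Among all included genes, 15.9% were called higher and 16.3% lower. The 8 B and plasma cell markers with a row summed to 755 in Myh9-KO and 234 in Control. The 3 higher genes were immunoglobulin products of plasma cells: Igha was 221 in Myh9-KO and 50.4 in Control, Jchain was 32.6 in Myh9-KO and 9.88 in Control, and Igkc was 494 in Myh9-KO and 167 in Control. Cd79b, a chain of the B cell receptor, was 2.59 in Myh9-KO and 2.48 in Control, Ighm was 2.75 in Myh9-KO and 2.72 in Control, and Cd79a was 0.283 in Myh9-KO and 0.870 in Control. Ms4a1 had no row. The part of plasma cells in the Ly6d level was not tested.

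Ly6g marks neutrophils, and the myeloid list split. Of 9 included markers, 4 were called higher, 3 lower and 2 lay between, with sums of 56.4 in Myh9-KO and 55.1 in Control. The shares over all included genes were 15.9% higher and 16.3% lower. Of the 4 higher markers, Cd68 and S100a9 had a Control level under 1 and entered through the knockout alone, which fixed their direction. Cd68, of macrophages, was 3.02 in Myh9-KO and 0.266 in Control, the granule gene Ltf was 9.66 in Myh9-KO and 2.58 in Control, S100a9 was 1.44 in Myh9-KO and listed at 0 in Control, and the lysozyme gene Lyz2 was 10.5 in Myh9-KO and 4.54 in Control. Fcer1g was 13.7 in Myh9-KO and 26.3 in Control, Itgax was 1.34 in Myh9-KO and 2.47 in Control, and Itgam was 3.75 in Myh9-KO and 5.68 in Control. Tyrobp, at 11.0 in Myh9-KO and 12.1 in Control, and Csf1r, at 1.92 in Myh9-KO and 1.14 in Control, lay between. The part of myeloid cells in the Ly6g level was not tested.

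Stratified squamous and urothelial epithelia also make Ly6d. Of 21 such markers, 6 had a row, with 4 called higher, none lower and 2 between. The 6 summed to 20.9 in Myh9-KO and 6.20 in Control. Among all included genes, 15.9% were called higher and 16.3% lower. Of the 4 higher markers, 3 (Sprr2a1, Krt15 and Sprr2a2) entered through the knockout alone, which fixed their direction. Sprr1a, a cornified envelope precursor gene, was 8.97 in Myh9-KO and 1.07 in Control, and Sprr2a1, a near relative, was 4.71 in Myh9-KO and 0.904 in Control. Krt15 was 1.56 in Myh9-KO and 0.182 in Control, and Sprr2a2, which shares sequence with Sprr2a1, was 1.56 in Myh9-KO and 0.204 in Control. Upk1b was 2.94 in Myh9-KO and 3.25 in Control, and Upk1a was 1.17 in Myh9-KO and 0.597 in Control. The keratin genes Krt5, Krt14, Krt13 and Krt4 and the basal cell factor gene Trp63 had no row and are not analysed here, and the part of such cells in the Ly6d level was not tested.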

How the data were processed

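RNA sequencing of 2 libraries of mouse small intestinal epithelium, 1 Myh9-KO and 1 Control, was read from the deposited gene sheet. The submitters' processing notes name HISAT2, StringTie and mm10 and give no version of the tools. The deposited signal values have no stated unit. None is below 1, and the authors are taken to have added 1 to each, which was removed. The deposited fold column, a ratio by the authors, equalled the Myh9-KO value over the Control value to within a relative difference of 1.22e-07. Values were assigned to samples by the sample number that sheet and titles share.

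Log2 folds used a pseudocount of 1, which understates differences of low genes. Included genes had a larger level of at least 1, and calls used 1.4-fold. There are no replicates, so no test was run and the size rule was tested on simulated data. The sheet lists 129 genes at 0 in Control and 91 in Myh9-KO, and no source used here states its filter on low genes. Positions and transcripts came from GENCODE M21 (GRCm38, the assembly mm10 denotes), and promoter windows from RefSeq. Python 3.11.15 with pandas 2.3.3 was used, and Biopython 1.88 aligned the promoter windows. The 4 genes and the lists were chosen with earlier results of these data known.

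Genes named are the 4 described, Myh9, cluster genes with a row, neighbours within 1 Mb past 1.4-fold, the nearest 3 genes by level to each of the 4, and from each list the members furthest past 1.4-fold and the most abundant of those between. Cd177, Cd79a, Clu, Epcam, S100a6 and Gm17349 were named after their values were seen. Alternatives were other pseudocounts and filters, a threshold of 2-fold, and 3 ways to rescale the libraries. A planned comparison of the protein sequences was not run.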

Additional observations from a re-analysis of the deposited data

How the results depend on the processing

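Ly6d, Ly6a and Gml stayed at least 1.4-fold higher, and Ly6e inside the lines, at a pseudocount of 0.1 and under each filter and rescaling tried. The 3 higher genes also passed a 2-fold threshold. Gml, listed at 0 in Control, entered through the knockout alone, so no setting could change its direction. Without a pseudocount no value was computed for Gml. The order of genes by log2 fold holds for a pseudocount of 1 and was not computed for others. The log2 fold of Ly6a was 5.76 at a pseudocount of 0.1, 5.86 with none, 5.08 after median rescaling, 5.18 after rescaling by totals without mitochondrial and the 20 most abundant genes, and 5.04 after upper quartile rescaling. That of Ly6d was 6.04, 6.16, 5.30, 5.40 and 5.26 in the same order. That of Ly6e was -0.072 after rescaling by totals and -0.22 after upper quartile rescaling. The rescaling by totals multiplied Myh9-KO by 1.08 and shifted the median of all genes to 0.095, with 61.3% of called genes higher against 49.4% as reported. In the cluster, 4 genes in place of 7 were called higher when a level of at least 5 was required, because fewer genes were included. Interferon-stimulated genes called higher numbered 16 at that filter and 14 at 2-fold, in place of 25. No paired analysis was possible because each group holds 1 library, and no library could be left out. The depth is unknown, so no counting interval could be given for low genes such as Ly6c1, Ly6g and Gml2.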
